A study of Mus musculus with 6 samples.

Results

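The 10 genes described here are the LEF/TCF factors *Lef1*, *Tcf7*, *Tcf7l1* and *Tcf7l2*, the beta-catenin gene *Ctnnb1*, the feedback gene *Axin2*, the ligands *Wnt2*, *Wnt5a* and *Wnt11*, and the secreted inhibitor *Dkk1*. They were taken by symbol from a table of 54532 genes, where all 10 had a row. All 10 also passed the filter on low counts, which kept 19372 genes for testing. RNA was sequenced from hearts of E9.5 mouse embryos, 3 WT and 3 *Smyd1-KO*, to ask which transcripts depend on SMYD1. SMYD1 is a muscle-restricted histone methyltransferase. The knockout embryos carry the mutated *Smyd1* allele in every cell, not only in cardiomyocytes, and they die in mid-gestation with a malformed right ventricle. Each library came from 1 heart, no treatment is listed for either genotype, and both sexes were used. P-values set the difference between genotypes against the spread among these 6 hearts within each genotype.

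In canonical Wnt signaling, a Wnt ligand binds a Frizzled receptor with an LRP co-receptor and stops the destruction complex from degrading beta-catenin. Beta-catenin then enters the nucleus and joins the DNA-bound LEF/TCF factors, which otherwise sit with Groucho/TLE co-repressors on their target genes. In the embryonic heart this branch supports proliferation of precursors and the formation of valves, whereas ligands such as WNT11 and WNT5A mostly act without beta-catenin and guide the polarity and migration of cells in the outflow tract.

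The libraries held 48627825 to 64217529 counts, and *Smyd1* itself was at 101, 222 and 206 CPM (read counts scaled to a common library size with TMM factors) in *Smyd1-KO* hearts 1, 2 and 3, against 414, 379 and 270 in WT hearts 1, 2 and 3. Each *Smyd1-KO* heart was below each WT heart. Its log2 fold change was −1.01 ± 0.300 (SE), with an adjusted *P* of 0.0973 by edgeR. Which exons the allele lacks is not given in the sources used here, so residual reads do not test the label. All 10 cardiomyocyte markers were present in each heart, with a summed level of 9190, 18900 and 19100 CPM in *Smyd1-KO* and 20500, 19000 and 12200 in WT. The 10 erythroid markers, which include globins, had a median log2 fold change of −2.61. In 9 of them the *Smyd1-KO* hearts lay below all WT hearts. The 10 summed to 27.5, 275 and 159 CPM against 725, 952 and 914. *Smyd1-KO* heart 1 also stood apart from the other hearts in neural transcripts. A set of 15 dorsal neural tube and neural progenitor genes was chosen after its values were seen, so its count is no test. The set was highest in this heart for 15 of 15 genes and summed to 335 CPM, against 20.1 to 56.0 in the remaining hearts. The 10 neural crest markers, which include *Pax3*, summed to 358, 283 and 233 CPM in *Smyd1-KO* and 346, 278 and 333 in WT. Their sum hides a split. *Sox10*, *Foxd3*, *Tfap2b*, *Ets1* and *Pax3* were highest in *Smyd1-KO* heart 1, and *Tfap2a*, *Dlx2*, *Dlx5*, *Prrx1* and *Hand2* were highest in WT hearts. Results that rest on *Smyd1-KO* heart 1 are given with and without it. In whole hearts, fewer cells of a type and less RNA per cell cannot be told apart.

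**Figure D1:**
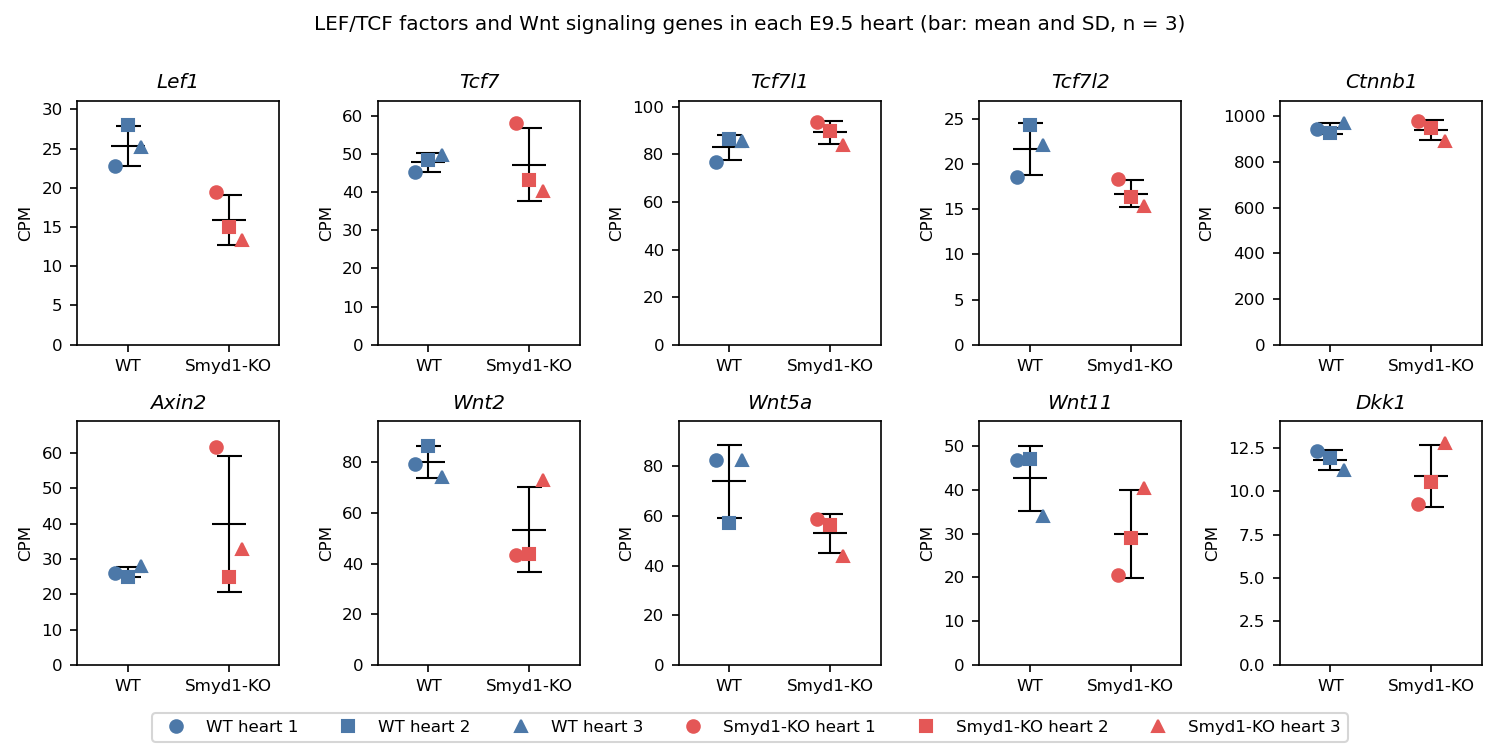
Level of each of the 10 genes in CPM (y axis, from 0) in the 3 WT hearts (blue) and the 3 *Smyd1-KO* hearts (red), with symbols for heart 1, 2 and 3, and with the mean and SD of each genotype in black. The *Smyd1-KO* hearts lie below all WT hearts for *Lef1*, *Tcf7l2* and *Wnt2*, and *Smyd1-KO* heart 1 sits far above the rest for *Axin2*.

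None of the 10 genes passed both thresholds of the edgeR test, adjusted *P* below 0.05 with a log2 fold change of 0.5 or more in size. DESeq2 with the same thresholds called 1 gene, *Lef1*. Of all tested genes, edgeR called 4.28% in either direction and 1.42% as lower in *Smyd1-KO*, and DESeq2 called 9.29%. Before adjustment, 4 of the 10 genes had a *P* under 0.05 by edgeR (*Lef1*, *Tcf7l2*, *Wnt2* and *Wnt5a*), all with a lower level in *Smyd1-KO*. The background of the same count was 25.1% of tested genes in either direction and 11.9% in the lower direction. The fold change was negative for 8 genes and positive for *Tcf7l1* and *Axin2*, with a median log2 value of −0.25 over the 10 and −0.00255 over all tested genes. For 3 of the 10, *Lef1*, *Tcf7l2* and *Wnt2*, each *Smyd1-KO* heart lay below each WT heart, which was so for 15.5% of tested genes.

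**Figure D2:**
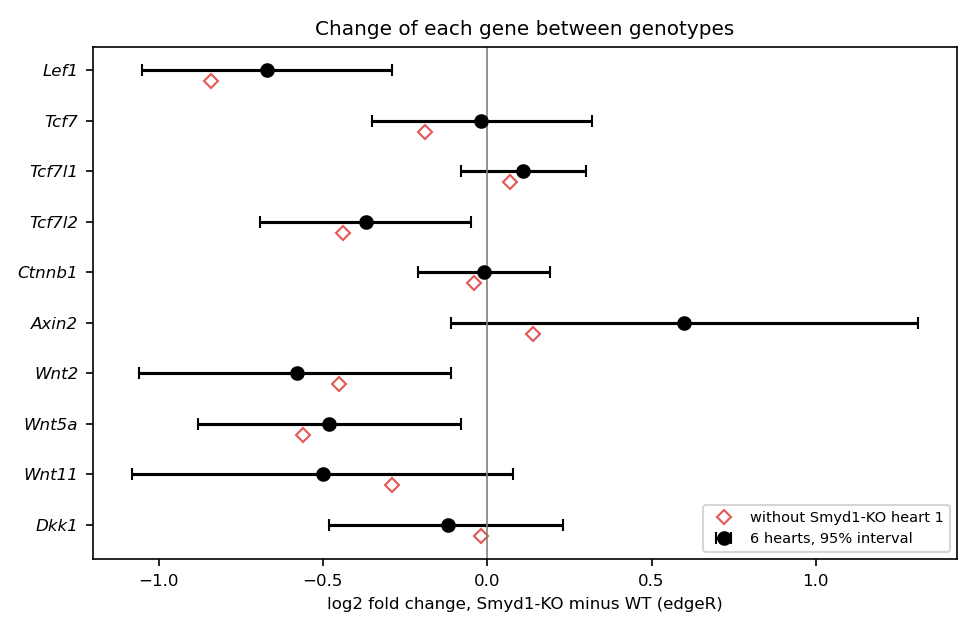
Log2 fold change of each gene, *Smyd1-KO* minus WT, by edgeR over 6 hearts (black points, with 95% intervals) and without *Smyd1-KO* heart 1 (open red diamonds). The intervals of *Lef1*, *Tcf7l2*, *Wnt2* and *Wnt5a* lie below 0. Without that heart *Lef1* moves to −0.84 and *Axin2* to 0.14.

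*Lef1* encodes the LEF/TCF factor that is itself a common target of Wnt signaling (ENSMUSG00000027985, GRCm38, chr3:131110471-131224356, plus strand). *Smyd1-KO* hearts 1, 2 and 3 held 19.4, 15.0 and 13.3 CPM, and WT hearts 1, 2 and 3 held 22.8, 28.0 and 25.2 CPM. The genotypes did not overlap, and *Smyd1-KO* heart 1 came closest to the WT range. Means were 15.9 ± 3.19 CPM (SD, n = 3) and 25.3 ± 2.60 CPM (n = 3), a ratio of 0.628. This gave a log2 fold change of −0.67 ± 0.163 (SE), with a 95% interval from −1.05 to −0.29. Its adjusted *P* was 0.0598 by edgeR, just outside the threshold, and 0.00384 by DESeq2. Without *Smyd1-KO* heart 1, edgeR gave −0.84 with an adjusted *P* of 0.0174, so *Lef1* then passed both thresholds, in a fit that called 6.28% of its genes. It rested on 757 to 1775 reads a library. A non-coding gene that overlaps *Lef1* exons on the opposite strand, *Gm43352*, had 16 to 55 reads a library. The erythroid markers given above were lower in the same hearts, with none of the 10 at 0 in any of them, and their part in the result was not tested.

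*Tcf7l2*, which encodes TCF4 (chr19:55741820-55933654, plus strand), was at 18.4, 16.4 and 15.4 CPM in *Smyd1-KO* and 18.6, 24.3 and 22.1 CPM in WT. All *Smyd1-KO* hearts were below all WT hearts, but the nearest hearts of the 2 genotypes were almost level. The log2 fold change was −0.37 ± 0.135 (SE, 95% interval −0.69 to −0.05), and the adjusted *P* was 0.146 by edgeR and 0.104 by DESeq2. *Tcf7*, which encodes TCF1 (chr11:52252371-52283014, minus strand), was at 58.2, 43.3 and 40.3 CPM in *Smyd1-KO* and 45.2, 48.4 and 49.9 CPM in WT. Here *Smyd1-KO* heart 1 was above and the other 2 knockout hearts were below the whole WT range. The log2 fold change of −0.02 had an interval from −0.35 to 0.32, and it was −0.19 (adjusted *P* = 0.21 by edgeR) without *Smyd1-KO* heart 1. *Tcf7l1* encodes TCF3, the member of the family that acts mainly as a repressor (chr6:72626378-72789254, minus strand). It was at 93.7, 89.9 and 84.2 CPM in *Smyd1-KO* and 76.8, 86.6 and 85.5 CPM in WT, overlapping ranges with a log2 fold change of 0.11 and an interval from −0.08 to 0.30.

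Because longer transcripts yield more reads, levels were compared between genes as CPM per kb of annotated exon. The length covers all annotated exons of a gene together, which can exceed the length of the transcripts present. It was 8788 bases for *Lef1*, 8775 for *Tcf7l2*, 2625 for *Tcf7* and 3924 for *Tcf7l1*, so the sizes of the shares rest on this choice. On this scale *Tcf7l1* and *Tcf7* made up most LEF/TCF transcripts in both genotypes. *Tcf7l1* accounted for 47.2, 47.6 and 47.2% of the summed CPM per kb of the 4 factors in WT hearts and for 47.4, 53.3 and 53.5% in *Smyd1-KO* hearts. *Tcf7* accounted for 41.4, 39.6 and 41.1% in WT and 44.0, 38.4 and 38.3% in *Smyd1-KO*. The minor members were *Lef1* and *Tcf7l2*. In CPM they were also the lowest of the 4, but by less, with WT means of 25.3 and 21.7. *Tcf7* and *Tcf7l1* had WT means of 47.9 and 83.0 CPM. The share of *Lef1* was 6.24, 6.85 and 6.19% in WT hearts and 4.38, 3.98 and 3.76% in *Smyd1-KO* hearts, without overlap. The share of *Tcf7l2* was 5.11, 5.96 and 5.46% in WT and 4.17, 4.35 and 4.38% in *Smyd1-KO*, also without overlap. These shares rest on the CPM values given above and are not a second result. In CPM the nearest hearts for *Tcf7l2* were at 18.4 (*Smyd1-KO* heart 1) and 18.6 (WT heart 1). All *Smyd1-KO* hearts were below all WT hearts in CPM for 15.5% of tested genes. The summed level of the family did not separate the genotypes, at 50.4, 43.0 and 40.2 CPM per kb in *Smyd1-KO* and 41.5, 46.5 and 46.2 in WT.

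**Figure D3:**
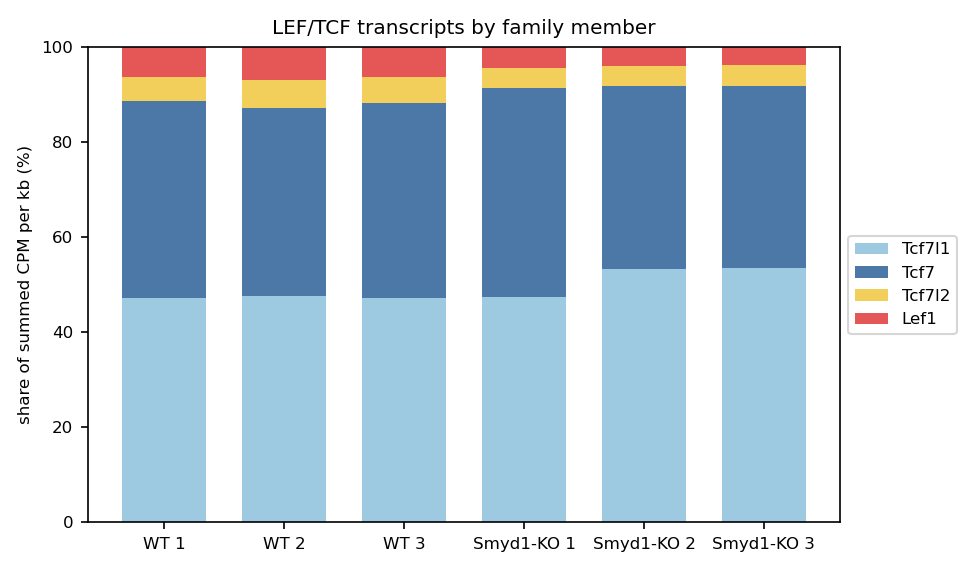
Share of each LEF/TCF gene in the summed level of the 4 genes (y axis, % of CPM per kb) in each heart. *Tcf7l1* and *Tcf7* take most of each bar, and the *Lef1* segment at the top is 6.19 to 6.85% in WT hearts and 3.76 to 4.38% in *Smyd1-KO* hearts.

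Over all 10 genes, WT levels were, from high to low, *Ctnnb1* (183 CPM per kb), *Wnt2* (35.4), *Tcf7l1* (21.1), *Tcf7* (18.2), *Wnt11* (10.3), *Wnt5a* (9.45), *Dkk1* (4.87), *Axin2* (4.78), *Lef1* (2.88) and *Tcf7l2* (2.47). This order rests on the exon lengths used. In CPM, *Dkk1* was the lowest of the 10 in WT, at a mean of 11.8. Per kb, neighbours whose WT hearts overlapped were *Wnt11* with *Wnt5a*, *Dkk1* with *Axin2*, and *Lef1* with *Tcf7l2*. In *Smyd1-KO* hearts *Ctnnb1* stayed first at 181 CPM per kb, *Wnt2* was at 23.7 and overlapped *Tcf7l1* at 22.8, and *Lef1* was last at 1.81, overlapping *Tcf7l2* at 1.91.

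LEF/TCF factors bind a short motif, and the promoters of the genes were searched for the letters CTTTG followed by 2 letters that are each A or T, on both strands. RefSeq windows on GRCm38.p6, from 250 bases before to 50 bases after an annotated start, were available for 9 of the 10 genes (16 windows), and *Wnt5a* had no entry. A motif lay in 4 of the 16 windows, in *Lef1*, *Tcf7l2*, *Wnt11* and *Dkk1*, and in 16.9% of all 32851 windows. The stretches around the motifs are shown because they hold the letters that LEF/TCF factors can read, and a match does not show binding. Each is printed 5′ to 3′ on the strand of its gene, with the motif in capitals. In *Lef1* and *Wnt11* the motif runs on the opposite strand and is printed as its reverse complement.

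Lef1, chr3:131156123-131156177, plus strand: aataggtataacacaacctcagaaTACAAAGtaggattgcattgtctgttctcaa
Tcf7l2, chr19:55895283-55895320, plus strand: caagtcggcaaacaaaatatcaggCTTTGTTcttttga
Wnt11, chr7:98835037-98835091, plus strand: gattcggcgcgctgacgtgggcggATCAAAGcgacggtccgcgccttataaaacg
Dkk1, chr19:30549586-30549615, minus strand: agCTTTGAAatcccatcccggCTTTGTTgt

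The *Lef1* and *Tcf7l2* stretches lie within introns of the annotated genes, before internal starts, and the windows at the other starts of both genes held no match. The *Wnt11* stretch ends 21 bases before the start of the annotated gene. *Dkk1* was the only one of the 9 with 2 motifs in its window, and its stretch lies in an annotated non-coding part of a *Dkk1* exon. The windows of *Axin2*, *Wnt2*, *Tcf7*, *Tcf7l1* and *Ctnnb1* held none of these letters. Of the 3 genes without overlap between genotypes, *Lef1* and *Tcf7l2* had one and *Wnt2* had none. *Wnt11* and *Dkk1*, whose genotypes overlapped, also had motifs. Of all 27025 genes with windows, 18.9% had one, and genes with several starts, such as *Lef1* and *Tcf7l2*, had several windows.

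*Ctnnb1* encodes beta-catenin, the transducer of the canonical branch and a part of cell junctions (chr9:120929216-120960507, plus strand). It was at 979, 950 and 894 CPM in *Smyd1-KO* and 943, 928 and 972 CPM in WT. The WT range lay inside the *Smyd1-KO* range, and the log2 fold change of −0.01 had an interval from −0.21 to 0.19. The RNA level says nothing of the amount or place of the protein, through which the pathway acts.

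*Axin2* encodes a scaffold of the destruction complex and is the standard readout of canonical Wnt activity (chr11:108920349-108950783, plus strand). *Smyd1-KO* hearts 1, 2 and 3 held 61.8, 25.0 and 32.9 CPM, and WT hearts 1, 2 and 3 held 26.1, 24.9 and 27.9 CPM. The high value belongs to *Smyd1-KO* heart 1. Heart 3 was above the WT hearts by less, and heart 2 lay within their range. Means were 39.9 ± 19.3 CPM (SD, n = 3) against 26.3 ± 1.48 CPM (n = 3). By edgeR the log2 fold change was 0.60 ± 0.304 (SE, 95% interval −0.11 to 1.31), with an adjusted *P* of 0.269, and of 0.157 by DESeq2. Without *Smyd1-KO* heart 1 it was 0.14 (adjusted *P* = 0.553 by edgeR).

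The same heart held the Wnt ligands of the dorsal neural tube. *Wnt1* was at 12.2 CPM in *Smyd1-KO* heart 1 and at no more than 0.0336 CPM in any other heart, and *Wnt3a* was at 8.19 CPM there with no count in the other 5 libraries, which allows up to 0.0525 CPM (3 counts, for counting error only). Neither gene passed the filter on low counts, so neither was tested. *Pax3*, a dorsal neural tube factor, was at 23.1 CPM in this heart and at 0.751 CPM or less elsewhere. *Zic1* was at 56.4 CPM against at most 0.423, and *Sox1*, which marks neural progenitors, at 29.9 CPM against at most 0.203. The summed cardiomyocyte markers of this heart, 9190 CPM, were the lowest of the 6. The part of these transcripts in the *Axin2* value was not tested.

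**Figure D4:**
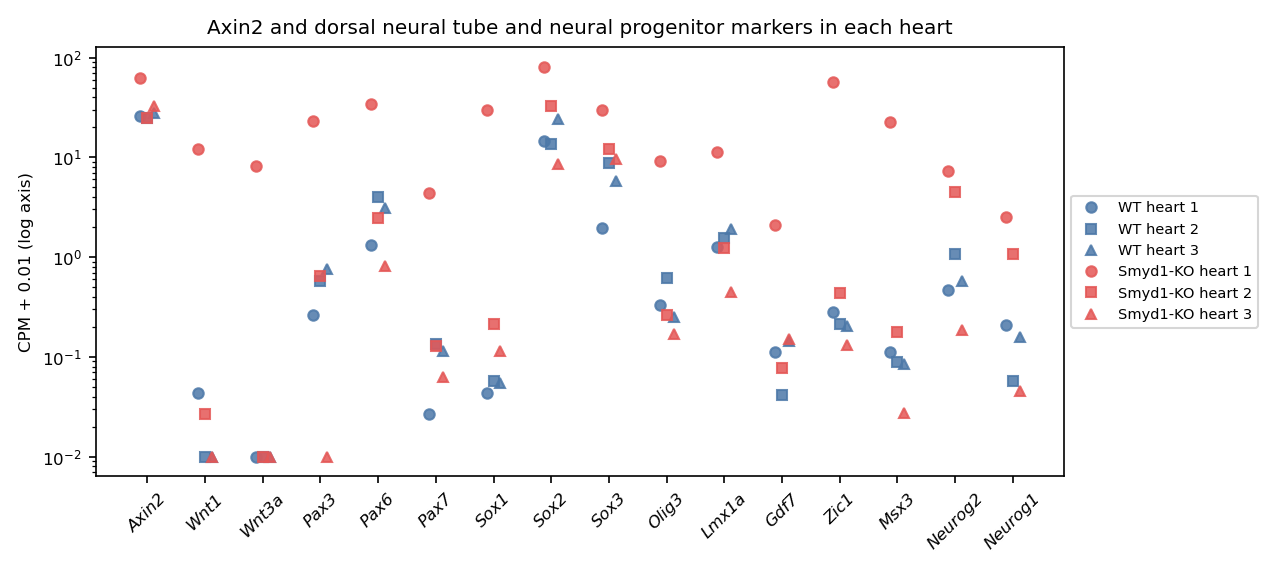
Level of *Axin2* and of 15 dorsal neural tube and neural progenitor genes in each heart, as CPM plus 0.01 on a log axis, in WT (blue) and *Smyd1-KO* (red) hearts 1, 2 and 3 (circle, square, triangle). *Smyd1-KO* heart 1 is the highest of the 6 for *Axin2* and for 15 of 15 markers, which were chosen after these values were seen.

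The 3 ligands had lower means in *Smyd1-KO*, and none passed the test. *Wnt2* encodes a canonical ligand of the early heart tube and the inflow region (chr6:17988940-18030585, minus strand). It was at 43.5, 43.8 and 72.8 CPM in *Smyd1-KO* and 79.2, 86.5 and 74.0 CPM in WT. *Smyd1-KO* hearts 1 and 2 were well below the WT hearts, whereas heart 3 lay just under the lowest of them. The ratio of means was 0.668 and the log2 fold change −0.58 ± 0.203 (SE, 95% interval −1.06 to −0.11), with an adjusted *P* of 0.133 by edgeR and 0.052 by DESeq2. Without *Smyd1-KO* heart 3 the value was −0.87 with an adjusted *P* of 0.015 by edgeR, and *Wnt2* then passed both thresholds. Without heart 1 it was −0.45 (adjusted *P* = 0.201 by edgeR).

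*Wnt5a* encodes a non-canonical ligand of the second heart field and the outflow tract (chr14:28504750-28527448, plus strand). It was at 58.6, 56.5 and 43.9 CPM in *Smyd1-KO* and 82.5, 57.0 and 82.3 CPM in WT. WT heart 2 lay within the *Smyd1-KO* range, and the other WT hearts were above it. The log2 fold change was −0.48 ± 0.172 (SE, 95% interval −0.88 to −0.08), with an adjusted *P* of 0.140 by edgeR and 0.0842 by DESeq2. *Gm2670*, annotated on the opposite strand over *Wnt5a* exons, had 18 to 86 reads a library.

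*Wnt11* encodes a non-canonical ligand expressed in myocardium and the outflow tract (chr7:98835112-98855195, plus strand). It was at 20.5, 29.0 and 40.5 CPM in *Smyd1-KO* and 46.8, 47.0 and 34.0 CPM in WT. *Smyd1-KO* heart 3 was above WT heart 3, so the genotypes overlapped. The log2 fold change of −0.50 ± 0.248 (SE) had an interval from −1.08 to 0.08 and an adjusted *P* of 0.256 by edgeR. It was −0.78 (adjusted *P* = 0.111 by edgeR) without *Smyd1-KO* heart 3 and −0.29 without *Smyd1-KO* heart 1, the heart with the lowest *Wnt11* level and the lowest cardiomyocyte marker sum. The part of that marker difference in the *Wnt11* value was not tested.

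*Dkk1* encodes a secreted inhibitor that binds the LRP co-receptors (chr19:30545863-30549665, minus strand). It was at 9.28, 10.5 and 12.8 CPM in *Smyd1-KO* and 12.3, 11.9 and 11.2 CPM in WT. The *Smyd1-KO* hearts lay on both sides of the WT hearts. Its log2 fold change of −0.12 had a 95% interval from −0.48 to 0.23 and came to −0.02 without *Smyd1-KO* heart 1.

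Within the knockout group, all of the 10 genes but *Axin2*, which was lowest in heart 2, followed 1 of 2 opposite orders. *Smyd1-KO* heart 1 was the highest of the 3 for 7 genes, the 4 LEF/TCF factors, *Ctnnb1*, *Axin2* and *Wnt5a*, and the lowest for 3, *Wnt2*, *Wnt11* and *Dkk1*. *Smyd1-KO* heart 3 was the highest for those same 3 genes and the lowest for 6 of the 7. Among WT hearts, *Wnt2*, *Wnt11* and *Dkk1* were lowest together in heart 3, and the 4 LEF/TCF factors were lowest together in heart 1. WT hearts 1, 2 and 3 were highest for 2, 5 and 3 genes. The SD was larger in *Smyd1-KO* than in WT relative to the mean for 7 genes, most for *Axin2*, with a coefficient of variation of 48.4% against 5.63%. *Tcf7l1*, *Tcf7l2* and *Wnt5a* varied less among *Smyd1-KO* than among WT hearts.

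The other genes of the pathway were taken from 8 lists by role, which with the 10 genes hold 107 genes, 101 of them tested. Among the 91 tested genes other than the 10, edgeR called 7 as higher in *Smyd1-KO* and 0 as lower, and DESeq2 called 15 as higher and 0 as lower. Of all tested genes, 2.86% were called higher by edgeR and 5.98% by DESeq2. Before adjustment, 27 of the 91 had a *P* under 0.05 with a higher level and 4 with a lower level (*Lgr6*, *Fzd6*, *Gsk3a* and *Dvl3*), against 13.1% and 11.9% of all tested genes. In 21 of the 91, all *Smyd1-KO* hearts lay above all WT hearts, which was so for 15.9% of tested genes. The median log2 fold change of the 91 was 0.13.

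**Figure D5:**
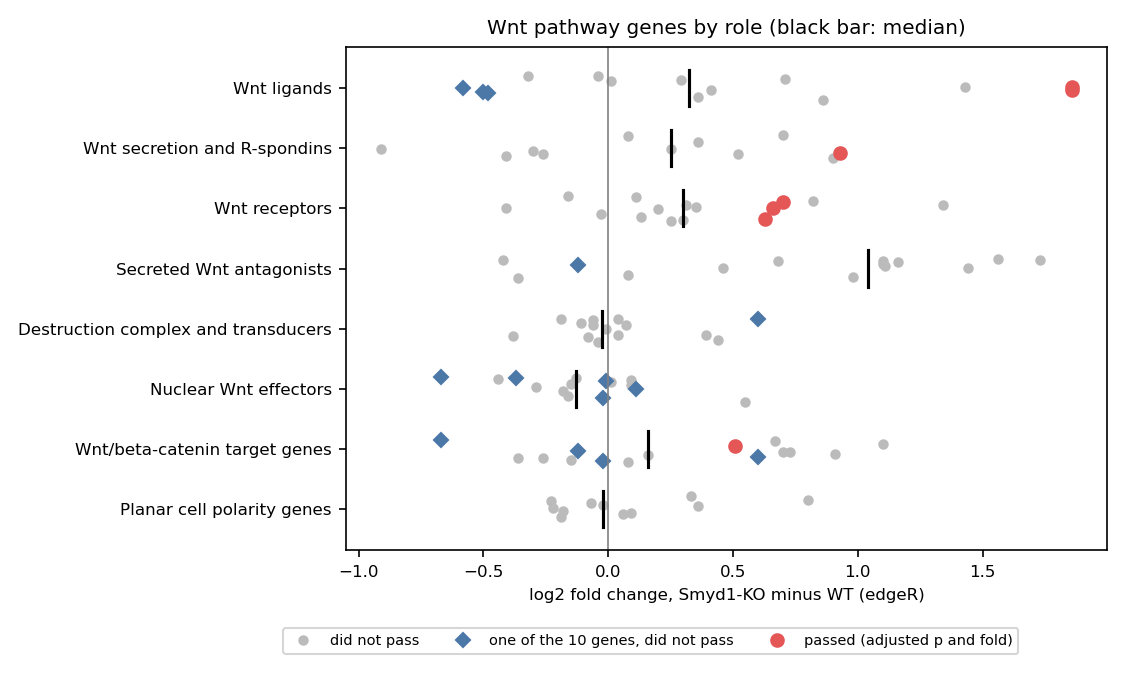
Log2 fold change, *Smyd1-KO* minus WT (x axis), of each tested Wnt pathway gene by role, with genes that passed both edgeR thresholds in red, the 10 genes as blue diamonds, others in grey and the median of each list as a black bar. All 7 red points lie to the right of 0, and the medians run from −0.13 for nuclear effectors to 1.04 for secreted antagonists.

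Among ligands, 2 of 14 tested genes rose by edgeR, and DESeq2 called 4 (*Wnt6*, *Wnt7a*, *Wnt7b* and *Wnt9a*). The median of the list was 0.33, and 0.17 without *Smyd1-KO* heart 1. *Wnt7b*, a canonical ligand best known from epithelia, was at 6.29, 4.23 and 7.83 CPM in *Smyd1-KO* and 2.06, 1.26 and 1.73 CPM in WT. It rose by 1.86 ± 0.294 on the log2 scale (SE, adjusted *P* = 0.0192 by edgeR). *Wnt7a*, its close relative, was at 2.18, 2.22 and 4.91 CPM against 0.923, 0.677 and 0.961 CPM, with a log2 fold change of 1.86 ± 0.376 (adjusted *P* = 0.0378 by edgeR). For both, each *Smyd1-KO* heart exceeded each WT heart, which is likely for genes that passed a test on the same hearts. Both also passed without *Smyd1-KO* heart 1, at 1.84 and 2.06. *Wnt9a* was at 0.86 with an adjusted *P* of 0.0569 by edgeR. The 10 markers of foregut endoderm and epithelium summed to 852, 872 and 1210 CPM in *Smyd1-KO* and 650, 620 and 682 CPM in WT, and the 10 epicardial and proepicardial markers to 161, 232 and 284 CPM against 149, 127 and 158. In each list, 2 of 10 markers had all *Smyd1-KO* hearts above all WT hearts (*Krt8* and *Krt18*, and *Upk3b* and *Aldh1a1*) and 1 had them all below (*Nkx2-1*, and *Kcne1l*). These counts are near the shares of all tested genes, 15.9% above and 15.5% below. Without the 2 keratins the first list summed to 304, 235 and 161 CPM in *Smyd1-KO* and 140, 220 and 257 CPM in WT, overlapping ranges. The part of these cell types in the *Wnt7a* and *Wnt7b* values was not tested.

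A list of 11 genes covers Wnt secretion and the R-spondins, which enhance Wnt reception. It also holds the LGR receptors of the R-spondins and the ubiquitin ligases on which they act. Of these 11, only *Porcn* rose by edgeR over 6 hearts, and DESeq2 called 1 gene, also *Porcn*. *Porcn* encodes the acyltransferase that lipidates Wnt ligands for secretion. It was at 16.3, 10.6 and 11.6 CPM in *Smyd1-KO* and 6.45, 7.61 and 6.14 CPM in WT, a log2 fold change of 0.93 ± 0.198 (SE, adjusted *P* = 0.0431 by edgeR). The R-spondin genes *Rspo1*, *Rspo2* and *Rspo3* had log2 fold changes of 0.90, −0.30 and −0.41 and did not pass.

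Of 15 tested receptor genes, edgeR called 3 over 6 hearts and 2 without *Smyd1-KO* heart 1, and DESeq2 called 4. The median of the list was 0.30. The Frizzled receptor gene *Fzd1* was at 94.1, 127 and 124 CPM in *Smyd1-KO* and 66.1, 78.1 and 69.0 CPM in WT (0.70 ± 0.131, SE, adjusted *P* = 0.0318 by edgeR). *Fzd7*, the most abundant of the called Wnt genes in CPM, was at 259, 210 and 226 CPM against 131, 147 and 170 CPM (0.63 ± 0.125, adjusted *P* = 0.0357 by edgeR). *Ror1* encodes a co-receptor for WNT5A and was at 30.8, 26.4 and 32.2 CPM against 17.1, 17.4 and 21.9 CPM (0.66 ± 0.136, adjusted *P* = 0.0385 by edgeR). None of these genotype ranges overlapped, which is likely for genes that passed a test on the same hearts. All *Smyd1-KO* hearts lay above all WT hearts for 15.9% of tested genes. *Fzd10* was at 32.0 CPM in *Smyd1-KO* heart 1 and 5.69 to 8.64 CPM in the other hearts. Its log2 fold change of 1.34 (adjusted *P* = 0.169 by edgeR) came to 0.40 without that heart. *Fzd9*, *Fzd5* and *Fzd6* were at 0.82, −0.16 and −0.41 and did not pass by edgeR. DESeq2 called *Fzd9* (adjusted *P* = 0.0499), which was at 0.44 by edgeR without *Smyd1-KO* heart 1.

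Secreted antagonists had the highest list median, 1.04, with 0 of 14 tested genes called by edgeR, 6 with an unadjusted *P* under 0.05 and 3 called by DESeq2 (*Dkk3*, *Notum* and *Sost*). The median was 0.29 without *Smyd1-KO* heart 1, and edgeR then called 2 genes of the list as higher, *Dkk3* and *Sost*. In 1 of the 14, *Sfrp1*, all *Smyd1-KO* hearts lay above all WT hearts, which was so for 15.9% of tested genes. Above the median of 1.04, *Kremen2*, *Sfrp4* and *Wif1* (1.73, 1.16 and 1.10) had low levels, at a mean log2 CPM of −1.76, −1.15 and −1.08. Single hearts carried some of the high values. *Sfrp2* was at 65.6 CPM in *Smyd1-KO* heart 1 and 5.91 to 16.8 CPM in the others, and *Dkk2* was at 34.0 CPM in *Smyd1-KO* heart 3 and 2.68 to 9.11 CPM in the others. *Frzb* and *Sfrp5*, which encode further decoy receptors, were at −0.42 and −0.36 on the log2 scale and did not pass.

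Medians lay near 0 in the intracellular part of the pathway. The 14 genes of the destruction complex and its transducers had a median of −0.02, with none called by edgeR or DESeq2. By edgeR, 3 had an unadjusted *P* under 0.05, against 25.1% of all tested genes. *Dvl2* and *Dvl3* encode Dishevelled proteins, which relay the receptor signal, and differed in sign. *Dvl2* was at 153, 133 and 135 CPM against 101, 109 and 111 CPM (0.39, adjusted *P* = 0.0484 by edgeR), past the adjusted *P* but short of the fold threshold. *Dvl3* was at 99.2, 111 and 115 CPM against 130, 156 and 136 CPM (−0.38, adjusted *P* = 0.0704 by edgeR). The kinase gene *Gsk3a* was at −0.19. Nuclear effectors, a list that includes the 4 LEF/TCF genes and *Ctnnb1*, had a median of −0.13 with none of 15 called by edgeR, 3 with an unadjusted *P* under 0.05, and *Lef1* and *Pygo1* called by DESeq2. Their largest values besides *Lef1* were 0.55 for the co-activator gene *Pygo1* and −0.44 for the co-repressor gene *Tle2*.

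Among 15 common target genes of beta-catenin, a list that includes *Axin2*, *Lef1*, *Tcf7* and *Dkk1*, *Myc* was the only gene called by edgeR, and the median was 0.16. DESeq2 called *Myc*, *Nkd1* and *Notum* as higher and *Lef1* as lower. Without *Smyd1-KO* heart 1 the median was −0.01, and edgeR called *Lef1* and no gene as higher. The growth regulator *Myc* was at 52.7, 41.6 and 49.4 CPM in *Smyd1-KO* and 34.7, 31.4 and 34.6 CPM in WT, a log2 fold change of 0.51 ± 0.108 (SE, adjusted *P* = 0.0428 by edgeR). Its value was 0.44 without *Smyd1-KO* heart 1, under the fold threshold. The feedback inhibitor genes *Notum*, *Apcdd1* and *Nkd2* were at 1.10, 0.91 and −0.36 and did not pass by edgeR. Without *Smyd1-KO* heart 3, *Notum* was at 0.57 and *Apcdd1* at 0.34. Fold changes of the list lay on both sides of 0, with *Lef1* the lowest of the list. None of the 11 planar cell polarity genes was called by edgeR or DESeq2. By edgeR, 1 of them, *Ptk7*, had an unadjusted *P* under 0.05, against 25.1% of all tested genes. *Celsr3*, *Prickle1*, *Daam2* and *Prickle2* were at 0.80, 0.36, −0.22 and −0.23. *Celsr3* was at 7.42 CPM in *Smyd1-KO* heart 1 and 1.37 to 2.33 CPM elsewhere, and its log2 fold change was −0.26 without that heart. The median of the list was −0.02 over 6 hearts and −0.26 without it.

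The 7 calls, like the calls over all genes, were sensitive to single hearts. When each heart was left out in turn, edgeR called between 0 and 8 of the Wnt genes, with *Wnt7b* called in 3 of the 6 fits, *Wnt7a*, *Porcn*, *Fzd1* and *Fzd7* in 1 each, and *Ror1* and *Myc* in none. All 7 had positive fold changes in these fits. Of all tested genes, the same fits called 97 (without WT heart 2) to 1256 (without *Smyd1-KO* heart 1), against 830 over 6 hearts.

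The genes whose levels followed *Lef1* most closely across the 6 hearts were found by the root-mean-square difference of centred log2 CPM, among 13050 genes whose mean log2 CPM was 1 or more. They were *Nkrf* (0.0697), *Megf9* (0.0867), *Smpdl3b* (0.0873), *Snora31* (0.0873) and *Slc26a6* (0.0884). None of the 5 passed the edgeR thresholds, with log2 fold changes from −0.72 to −0.60. Values near that of *Lef1* follow from how the genes were picked. None of the 5 is in the Wnt lists, but these hold only 107 genes, so this says nothing about the pathway. Of the other 9 genes described here, *Tcf7l2* was the nearest to *Lef1* at rank 242 (0.184), followed by *Wnt5a* at rank 1857, and *Axin2* was the farthest at rank 11434.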

How the data were processed

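The authors selected poly A RNA, sequenced paired-end reads and aligned them to mm10 with STAR in bcbio-nextgen. They deposited raw read counts per gene, as whole numbers without normalization. The counting tool, annotation release and strand setting are not given in the sources used here, so reads of overlapping genes on opposite strands may be shared. A second deposited table of normalized values was not used here.

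Counts were compared in edgeR 4.0.16 (R 4.3.3) with filterByExpr, TMM factors, the two-sided quasi-likelihood test and Benjamini-Hochberg adjustment over 19372 genes. CPM were scaled by TMM, with a prior count of 2 before taking log2. Intervals have a confidence level of 95%. The study used DESeq2, which is an alternative here (version 1.42.0). Scripts were tested on simulated data. Exonic lengths and gene positions came from GENCODE vM21 (GRCm38), and promoters from RefSeq. The common biological coefficient of variation was 22.5%.

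The 10 genes, the gene lists and the markers were chosen with earlier results of these data known. Named genes were the 10, *Smyd1*, from each Wnt list the called genes and the 2 largest fold changes in each direction whose mean log2 CPM was 1 or more, and the 5 genes most like *Lef1*. *Wnt1*, *Wnt3a*, *Kremen2*, *Sfrp4*, *Wif1*, the neural markers and the names of the neural crest markers were added after their values were seen. So were genes named only to spell out a count of 4 or fewer (such as *Dkk3*, *Sost*, *Sfrp1*, *Lgr6*, *Wnt6*, *Nkd1*, *Ptk7* and single cell type markers). Alternatives were other scaling and filters, DESeq2, a replicate block and leaving out each heart.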

Additional observations from a re-analysis of the deposited data

How the results depend on the processing

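The filter on low counts left 6 Wnt genes untested (*Wnt1*, *Wnt3a*, *Wnt8a*, *Wnt8b*, *Wnt10b* and *Dkk4*). Over 13 alternatives, 121 of 130 fold changes of the 10 genes kept their direction and their side of the thresholds. *Lef1* passed both thresholds under DESeq2, with no filter on low counts and without *Smyd1-KO* heart 1, and its log2 fold change ranged from −0.84 to −0.55, with adjusted *P* from 0.00384 to 0.211. *Wnt2* passed without *Smyd1-KO* heart 3, with a range from −0.87 to −0.45. *Tcf7* (−0.19 to 0.09) and *Ctnnb1* (−0.04 to 0.03) changed sign in 3 and 2 of the fits without a heart. The other 6 genes kept their sign and stayed below the thresholds in each alternative.

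Of the 10 genes, 0 passed in the edgeR fit over 6 hearts, 1 under DESeq2, 1 with no filter on low counts, and 0 to 1 when a heart was left out. Of the 101 tested Wnt genes, 7 passed, against 16 under DESeq2 and 0 to 8 when a heart was left out. Of all tested genes, 830 passed, against 1749 under DESeq2 and 97 (without WT heart 2) to 1256 (without *Smyd1-KO* heart 1) when a heart was left out. These fits had fewer hearts. For DESeq2 the cause was not tested. RLE or upper-quartile factors, removal of mitochondrial and hemoglobin genes and a minimum of 10 counts left 0 of the 10 genes and 7 Wnt genes past the thresholds.

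Replicate numbers are shared between genotypes, and whether same-numbered hearts share a litter is not stated. Correlations of deviations were −0.216, −0.0538 and −0.182 for numbers 1, 2 and 3. Between hearts of different numbers they ran from −0.156 to 0.286. With 3 hearts a genotype, these values cannot decide whether the hearts were paired. With a replicate block, 0 of the 10 genes, 0 Wnt genes and 59 of all genes passed.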
